A study of Mus musculus with 8 samples.

Results

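The interferon response and the receptor-linked signalling that carries it were followed in 39 mouse genes, named as a fixed set of symbols: the interferon receptors, their Janus kinases (JAKs), the STAT and IRF transcription factors, and genes induced by interferon. Of the 39 symbols, 37 matched a row of the deposited table of 16888 genes, and 30 of these were abundant enough to be tested. Mx1 and Mx2, of a family of antiviral GTPases, matched no row and were not analysed here. The annotation used for gene positions lists Mx2 as a polymorphic pseudogene. The set is a fixed list of symbols, chosen with earlier results of these data known, and it left out Irf3, Irf7, Zbp1 and Nlrc5 for a reason of data quality given below.

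RNA from whole pancreas was sequenced in 8 samples. All came from mice that received repeated cerulein, a cholecystokinin analogue whose excess causes acute pancreatitis, so the controls carried the disease model too. In 4 samples the genotype was a myeloid-specific Anxa1 knockout (CKO1 to CKO4), and in 4 it was Anxa1 flox/flox with the gene intact (WT1 to WT4). The sources used here do not give strain, age, sex, the Cre line, the time after injection, or whether each sample was a separate animal, so p-values measure the spread between these samples, which may be technical.

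Interferons are secreted when cells sense viral or misplaced nucleic acid. Type I interferon binds the IFNAR1 and IFNAR2 receptor chains, whose kinases JAK1 and TYK2 phosphorylate STAT proteins. STAT2 with IRF9 then binds the interferon-stimulated response element (ISRE) of target promoters. Interferon gamma, from T and NK cells, acts through IFNGR1 and IFNGR2 on the gamma-activated site (GAS). The induced genes block virus entry, translation and replication, or tune the pathway itself.

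Promoter sequences show which members carry these elements. RefSeq promoters of GRCm38.p6, running from 250 bases before to 50 after each start, were found for 31 of the 39 symbols. The ISRE was searched as GAAA, any 2 bases, GAAA, and the GAS as TTCNNNGAA, on both strands, and matches of one may overlap matches of the other. ISRE letters stood in the promoters of 15 of the 31 genes (48.4%), against 3.99% of all 27025 genes in the table. GAS letters stood in 11 of 31 (35.5%), against 9.55% of all genes. By role, ISRE letters were found in 10 of 13 antiviral effectors, in both RNA sensors matched and in 2 of 5 transcription factors, and in 0 of 6 receptor and kinase genes. A match is a description of the letters and not evidence of binding. The 5 promoters below are those of the member that passed the test (Irf1) and of 4 induced genes whose levels are described in full. Capitals mark ISRE and GAS matches, and a run of capitals can hold several overlapping matches.
Irf1 (chr11:53769764-53770063, plus strand): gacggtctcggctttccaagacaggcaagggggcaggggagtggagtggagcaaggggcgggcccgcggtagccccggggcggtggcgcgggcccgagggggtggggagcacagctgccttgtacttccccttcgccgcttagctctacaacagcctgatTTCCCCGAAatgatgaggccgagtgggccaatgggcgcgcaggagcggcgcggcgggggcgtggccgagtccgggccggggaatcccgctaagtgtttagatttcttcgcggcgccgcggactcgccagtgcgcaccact
Isg15 (chr4:156200769-156201068, minus strand): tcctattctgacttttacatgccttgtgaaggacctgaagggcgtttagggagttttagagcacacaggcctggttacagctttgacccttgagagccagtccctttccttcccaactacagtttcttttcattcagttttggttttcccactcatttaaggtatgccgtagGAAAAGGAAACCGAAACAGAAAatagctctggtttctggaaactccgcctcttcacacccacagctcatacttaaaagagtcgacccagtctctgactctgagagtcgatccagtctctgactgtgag
Ifit1 (chr19:34640639-34640938, plus strand): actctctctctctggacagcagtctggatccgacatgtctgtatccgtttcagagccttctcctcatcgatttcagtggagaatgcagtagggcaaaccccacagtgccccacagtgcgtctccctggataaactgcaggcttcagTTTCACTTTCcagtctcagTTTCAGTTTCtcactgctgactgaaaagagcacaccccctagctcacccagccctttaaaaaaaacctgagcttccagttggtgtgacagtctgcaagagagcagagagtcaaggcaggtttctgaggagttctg
Ifitm3 (chr7:141010695-141010994, minus strand): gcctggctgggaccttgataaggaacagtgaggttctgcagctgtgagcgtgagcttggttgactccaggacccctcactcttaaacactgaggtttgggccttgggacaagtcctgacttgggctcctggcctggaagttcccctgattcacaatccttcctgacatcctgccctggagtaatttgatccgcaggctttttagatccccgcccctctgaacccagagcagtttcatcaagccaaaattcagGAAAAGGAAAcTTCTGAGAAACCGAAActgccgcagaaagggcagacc
Gbp2 (chr3:142620413-142620712, plus strand): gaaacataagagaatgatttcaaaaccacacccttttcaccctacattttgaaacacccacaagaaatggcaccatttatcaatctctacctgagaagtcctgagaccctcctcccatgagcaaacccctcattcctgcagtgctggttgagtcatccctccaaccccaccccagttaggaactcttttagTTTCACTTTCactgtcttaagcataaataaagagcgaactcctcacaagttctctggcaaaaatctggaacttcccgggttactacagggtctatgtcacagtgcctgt

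The Irf1 promoter shown held 1 GAS match, TTCCCCGAA, from position -90 to -82 relative to the start, and 0 ISRE matches. Another Irf1 promoter, at chr11:53770223-53770522, held 0 matches of either kind. The Isg15 promoter held 3 ISRE matches that overlap one another, between positions -78 and -57. Ifit1 held a pair of separate ISRE matches, Gbp2 held 1, and in Ifitm3 a GAS match overlapped the second of 2 ISRE matches just after the start.

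**Figure D1:**
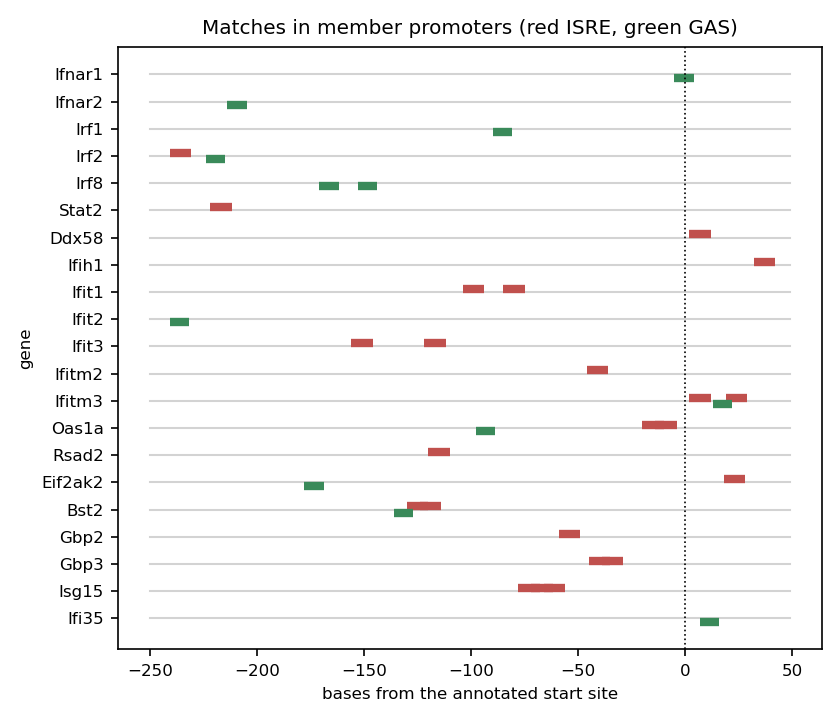
Position of ISRE (red) and GAS (green) letter matches in the promoters of the members that hold any, in bases from the annotated start site (dotted line). Rows are genes, and the grey line is the window searched, from 250 bases before to 50 after the start. The ISRE matches of Isg15, Gbp2 and Gbp3 lie shortly before the start.

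Levels are given in RPKM, reads scaled to gene length and library size, as the authors deposited them. Library totals recovered from the values ran from 30469002 to 34359802 reads. Changes are on the scale of log2(RPKM + 1), CKO minus WT, and a gene was called at an adjusted p under 0.05 over all 8513 genes tested (limma with Benjamini-Hochberg adjustment). The deleted gene Anxa1 stood at 4.84, 4.76, 5.21 and 7.13 RPKM in CKO1 to CKO4 and at 8.44, 14.7, 7.05 and 9.74 RPKM in WT1 to WT4. Its log2 change was -0.73 (SE 0.19, limma adjusted p = 0.0417). WT3 fell under CKO4, so the groups overlapped. That call was lost without WT2 (log2 change -0.54, adjusted p = 0.0811) and in several other settings, in which the adjusted p reached 0.108. Digestive enzymes of acinar cells took up 55.0 to 63.81% of the reads of a library, so every other cell type was measured against an acinar background.

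Irf1 was the single member that passed the test. Of the 30 tested members 1, Irf1, was lower in CKO and 0 were higher, which is 3.33% called, against 7.17% of all tested genes called in either direction and 5.74% called as lower. The share of lower calls depended on the scaling: when each library was centred on its median, 267 of all tested genes were lower and 305 higher, in place of 489 and 121, while 1 member was still lower. The members' share lies near these background shares. An unadjusted p under 0.05 was found for 3 of the 30, against 27.3% of all tested genes. The log2 changes of the tested members ran from -0.56 to 0.23, with a median of -0.14 beside -0.12 over all tested genes. The members were measured less precisely than most genes, with a median SE of 0.16 against 0.13 for all tested genes. The 95% interval stayed within 1 unit of 0 on the log2(RPKM + 1) scale for 29 of the 30, all but Gbp2, and reached beyond 0.58 for 12. This scale understates fold changes of genes at a few RPKM, so these are not bounds on the fold. Groups without overlap were found for 1 of the 30 tested members (3.33%), against 18.7% of all tested genes.

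**Figure D2:**
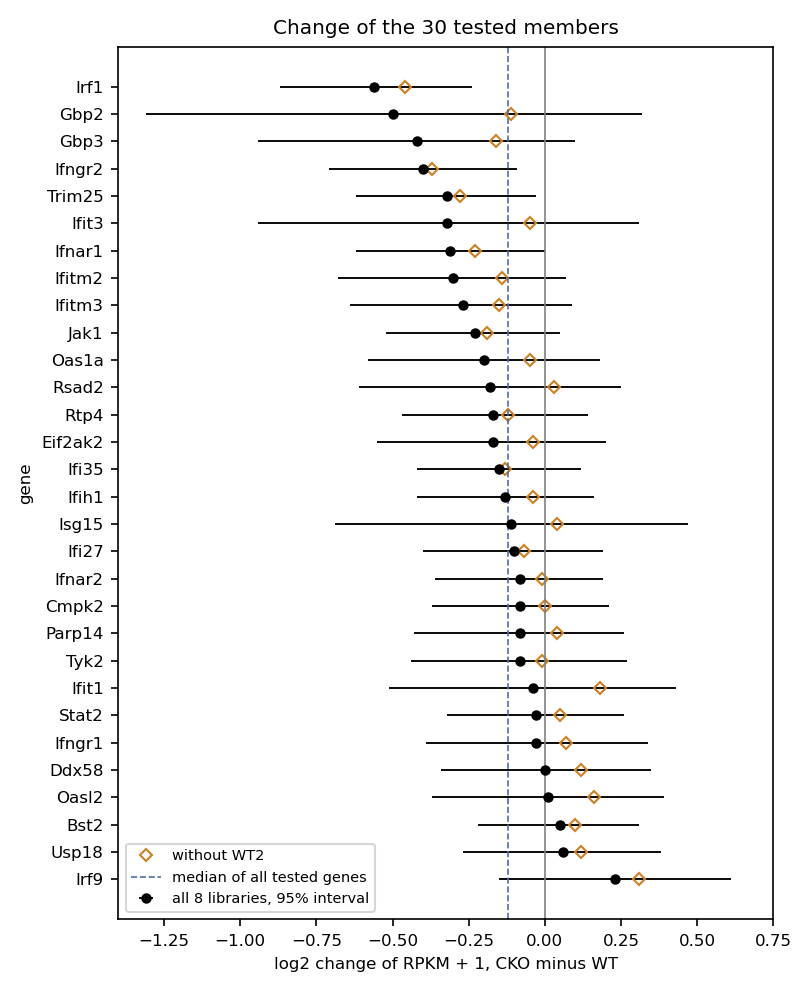
Change of each of the 30 tested members on the scale of log2(RPKM + 1), CKO minus WT. Black points are the estimates from all 8 libraries with their 95% intervals, open diamonds the estimates without WT2, and the dashed line the median of all tested genes (-0.12). Irf1 lies lowest at -0.56, and the diamonds of Gbp2, Gbp3 and Ifit3 lie well to the right of their points.

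Among the transcription factors, Irf1 was the member that fell. It codes for a factor first known as an activator of interferon genes, and is itself induced by interferon gamma. The gene lies on chromosome 11 (53770014 to 53778374, plus strand, GENCODE M21 on mm10). Irf1 stood at 1.76, 2.49, 3.03 and 2.40 RPKM in CKO1 to CKO4 and at 3.98, 5.04, 3.66 and 3.40 RPKM in WT1 to WT4. Every CKO library lay below every WT library, with CKO1 lowest and WT2 highest. The means were 2.42 ± 0.521 (SD, n = 4) and 4.02 ± 0.723 RPKM (SD, n = 4), 1.66-fold higher in WT. The log2 change was -0.56 (SE 0.14, 95% interval -0.87 to -0.24, limma adjusted p = 0.0392), from 202 to 543 reads a library. The call held without CKO3 (adjusted p = 0.0299). It was lost on omitting CKO1 (0.0634), CKO2 (0.0849) or CKO4 (0.087), on omitting WT1 (0.0932), WT2 (0.0966), WT3 (0.0646) or WT4 (0.0536), and with no filter on low values (0.0754). Over the omissions the log2 change of Irf1 stayed between -0.64 and -0.46.

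Irf8, a factor of macrophage and dendritic cell development, was too low to be tested. It stood at 0.613, 0.847, 0.776 and 0.636 RPKM in CKO1 to CKO4 and at 1.12, 2.16, 1.04 and 0.898 RPKM in WT1 to WT4, so the groups did not overlap. When every gene was tested without the filter, its log2 change was -0.40 (SE 0.15) and did not pass (limma adjusted p = 0.187). Irf9, the DNA-binding partner of STAT2, pointed the other way. It stood at 3.96, 5.37, 7.23 and 3.85 RPKM in CKO1 to CKO4 and at 4.43, 5.04, 3.66 and 3.42 RPKM in WT1 to WT4, a log2 change of 0.23 (95% interval -0.15 to 0.61, adjusted p = 0.425). CKO2 and CKO3 were above every WT library, and CKO1 and CKO4 within the WT range. Stat2 itself was near level, at 2.14 ± 0.428 and 2.20 ± 0.400 RPKM (SD, n = 4 each, limma adjusted p = 0.911). Irf2, which competes with IRF1 for its sites, was below the filter at 0.696 to 1.32 RPKM over all 8 libraries.

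The receptors and kinases were all measured, and none of the 6 passed. All 6 had a negative log2 change, with a median of -0.16, close to that of all genes, though Ifnar2, Ifngr1 and Tyk2 turned positive when each library was centred on its median. Ifngr2, the signalling chain of the interferon gamma receptor, came nearest. It stood at 12.3, 15.6, 19.3 and 12.1 RPKM in CKO1 to CKO4 and at 18.4, 20.8, 19.1 and 19.8 RPKM in WT1 to WT4. CKO1, CKO2 and CKO4 lay below all WT libraries, while CKO3 lay among them. Its log2 change was -0.40 (SE 0.14, 95% interval -0.71 to -0.09, limma adjusted p = 0.0981), and it passed without CKO3 (log2 change -0.53, adjusted p = 0.0299). The ligand-binding chain Ifngr1 was near level, at 7.2 ± 1.75 and 7.27 ± 1.31 RPKM (SD, n = 4 each, limma adjusted p = 0.938).

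Of the type I receptor chains, Ifnar1 stood at 2.32 to 3.62 RPKM in CKO and 3.47 to 4.93 RPKM in WT, with a log2 change of -0.31 (95% interval -0.62 to 0.00, adjusted p = 0.19). Ifnar2 was at 1.51 to 2.27 RPKM and 1.67 to 2.51 RPKM (adjusted p = 0.707). Jak1, the kinase shared by both receptor types, stood at 14.6 ± 2.02 and 17.4 ± 2.39 RPKM (SD, n = 4 each, limma adjusted p = 0.269). Tyk2, the second kinase of the type I receptor, was at 4.00 ± 0.805 and 4.32 ± 0.963 RPKM (SD, n = 4 each, limma adjusted p = 0.782). Ifnar1, Ifnar2 and Ifngr2 lie within a short stretch of chromosome 16, from 91372783 to 91565623 on mm10.

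The cytoplasmic RNA sensors did not pass either. Ddx58, the gene of RIG-I, stood at 1.53 ± 0.458 and 1.52 ± 0.474 RPKM (SD, n = 4 each), a log2 change of 0.00 (95% interval -0.34 to 0.35, limma adjusted p = 0.989). Ifih1, the gene of MDA5, reached 1.43 RPKM in CKO3 and 1.71 RPKM in WT2, the highest library of each group (log2 change -0.13, adjusted p = 0.56). Dhx58, which codes for their regulator LGP2, was below the filter at 0.42 to 1.39 RPKM over all libraries.

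The antiviral effectors were the largest role group, with 15 rows and 13 tested members. None passed, 11 of the 13 had a negative log2 change (84.6%, against 70.4% of all tested genes), and the median was -0.18. Ifit1 and Cmpk2 turned positive with median centring. Ifitm3 and Ifitm2, membrane proteins that hinder virus entry, were the most abundant. Ifitm3 stood at 94.4, 109, 144 and 87.8 RPKM in CKO1 to CKO4, and in WT1 to WT4 at 120, 168, 110 and 127 RPKM. Highest was WT2, with CKO3 second, so the groups overlapped (log2 change -0.27, 95% interval -0.64 to 0.09, limma adjusted p = 0.308). Ifitm2 stood at 46.2 to 69.8 RPKM in CKO and at 69.5, 104, 63.5 and 64.3 RPKM in WT1 to WT4 (log2 change -0.30, adjusted p = 0.269).

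Ifit1, which binds viral RNA and blocks its translation, stood at 1.15, 2.18, 2.13 and 1.70 RPKM in CKO1 to CKO4 and at 1.65, 3.48, 1.69 and 1.03 RPKM in WT1 to WT4. The WT group held both the highest and the lowest library, and the log2 change was -0.04 (95% interval -0.51 to 0.43, adjusted p = 0.926). Ifit3, its stabilising partner, stood at 1.19 to 2.75 RPKM in CKO and at 1.21, 4.98, 2.76 and 1.85 RPKM in WT1 to WT4 (adjusted p = 0.497). Ifit2 was below the filter in every library, at 0.215 to 0.417 RPKM in CKO and 0.316 to 0.814 RPKM in WT. The 3 genes belong to 1 cluster on chromosome 19.

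Gbp2 and Gbp3, guanylate-binding proteins known as targets of interferon gamma, had the lowest fitted changes after Irf1. Gbp2 stood at 5.48, 4.58, 8.47 and 9.32 RPKM in CKO1 to CKO4 and at 6.37, 23.4, 8.22 and 7.47 RPKM in WT1 to WT4. The WT libraries other than WT2 lay inside the CKO range. The log2 change was -0.50 (SE 0.36, adjusted p = 0.405) and became -0.11 without WT2 (adjusted p = 0.797). Gbp3, of the same cluster on chromosome 3, stood at 0.902, 1.1, 1.63 and 2.02 RPKM in CKO1 to CKO4 and at 1.57, 4.44, 1.76 and 1.65 RPKM in WT1 to WT4. Its log2 change of -0.42 (SE 0.24, adjusted p = 0.272) became -0.16 without WT2 (adjusted p = 0.584).

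Rsad2, the gene of viperin, stood at 1.68 to 2.67 RPKM in CKO and 2.09 to 4.90 RPKM in WT (adjusted p = 0.583). Its neighbour Cmpk2, a nucleotide kinase of mitochondria, was at 1.35 to 2.01 RPKM and 1.39 to 2.38 RPKM (adjusted p = 0.728). Oas1a, of the family that makes the second messenger for RNase L, was at 1.38 to 2.62 RPKM and 1.80 to 3.66 RPKM (adjusted p = 0.489). Oasl2, a relative of that family, was at 2.83 to 4.61 RPKM and 2.61 to 5.34 RPKM (adjusted p = 0.983), and Oas2 was below the filter at 0.177 to 1.18 RPKM over all libraries. Eif2ak2, the gene of the kinase PKR that halts translation, was at 0.969 to 2.22 RPKM and 1.42 to 2.74 RPKM (adjusted p = 0.539). Bst2, the gene of tetherin, was at 12 to 15.7 RPKM and 11.1 to 14.3 RPKM (log2 change 0.05, 95% interval -0.22 to 0.31). Rtp4 was at 1.06 to 2.23 RPKM and 1.95 to 2.39 RPKM (adjusted p = 0.468). In each of these genes the groups overlapped.

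Isg15 codes for a ubiquitin-like protein that is joined to other proteins in the interferon response. It stood at 2.63, 6.89, 8.37 and 5.07 RPKM in CKO1 to CKO4 and at 5.53, 8.36, 4.53 and 5.56 RPKM in WT1 to WT4. The CKO group held both its lowest and its highest library, 3.18-fold apart. The log2 change was -0.11 (SE 0.27, 95% interval -0.69 to 0.47, adjusted p = 0.818). Usp18, which removes ISG15 and dampens the type I receptor, was at 0.858 to 1.36 RPKM in CKO and 0.482 to 1.34 RPKM in WT (adjusted p = 0.833).

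Trim25, a ubiquitin ligase that activates RIG-I, stood at 6.13, 7.41, 8.95 and 6.83 RPKM in CKO1 to CKO4 and at 9.67, 10.3, 10.2 and 7.55 RPKM in WT1 to WT4. WT4 lay inside the CKO range and the other WT libraries above it (log2 change -0.32, SE 0.14, limma adjusted p = 0.152). Parp14, an ADP-ribosyltransferase, was at 1.19 to 2.26 RPKM and 1.53 to 2.78 RPKM (adjusted p = 0.766). Among the remaining induced genes Ifi27 was at 31.2 ± 5.99 and 33.3 ± 3.01 RPKM (SD, n = 4 each, limma adjusted p = 0.651), and Ifi35 at 8.75 ± 1.41 and 9.73 ± 0.479 RPKM (SD, n = 4 each, limma adjusted p = 0.46). Ifi44 (0.242 to 0.809 RPKM) and Xaf1 (0.388 to 1.34 RPKM) were below the filter, with overlapping groups. Reads shared between close relatives, such as Ifit3 and Ifit3b, Oas1a and Oas1g, or Ifitm2 and Ifitm3, make their levels uncertain, since the sources used here do not say how shared reads were counted.

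**Figure D3:**
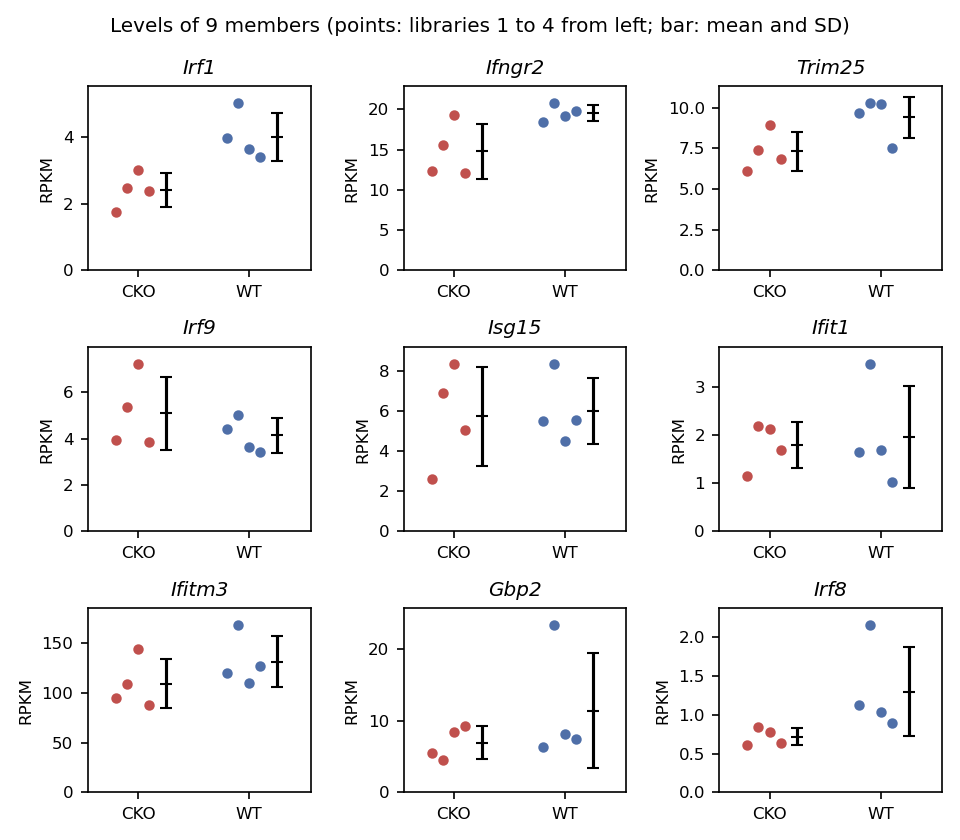
RPKM of 9 members, each in its own panel with a linear axis from 0. Points are libraries 1 to 4 of CKO (red) and WT (blue) from left to right, and the bars are group means with their SD. Irf1 and Irf8 are the panels whose groups do not overlap, and in Gbp2 a single WT library at 23.4 RPKM stands above the rest.

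The members shared a pattern across libraries. WT2 was the highest of the 8 libraries for 23 of the 30 tested members (76.7%), while it was highest for 28.1% of all tested genes. Within the WT group it was highest for 28 of the 30 (93.3%, against 35.6% of all tested genes), the exceptions being Jak1 and Usp18. Within CKO, CKO3 was highest for 25 of the 30, against 56.9% of all tested genes. CKO1 was the lowest of all 8 for 15 of the 30 (50%), against 29.6% of all tested genes. The median deviation of the members from their 8-library mean was 0.34 in WT2, 0.18 in CKO3, -0.19 in CKO4 and -0.32 in CKO1 on the log2 scale, against 0.10, 0.09, -0.15 and -0.17 for all tested genes.

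**Figure D4:**
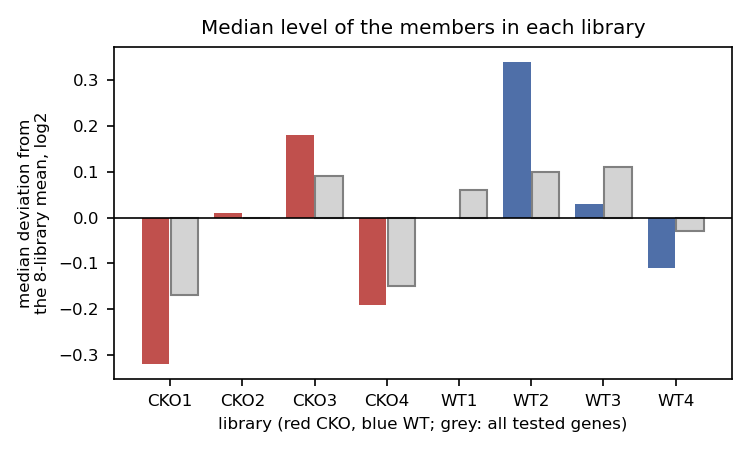
Median deviation of the 30 tested members from their mean over the 8 libraries, in log2(RPKM + 1), for each library (red CKO, blue WT), beside the same for all tested genes (grey). The members reach 0.34 in WT2 and -0.32 in CKO1.

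Without WT2, the median log2 change of the tested members moved from -0.14 to -0.04, while that of all tested genes moved from -0.12 to -0.11. The number with a negative change went from 25 to 19 of 30 (83.3 to 63.3%, against 70.4 and 68.3% of all tested genes), and 0 passed. The fold of WT2 over the mean of the other WT libraries was 3.18 for Gbp2, 2.67 for Gbp3, 2.56 for Ifit3, 2.39 for Ifit1 and 2.14 for Rsad2. Over the receptor and kinase genes it ran from 1.09 (Ifngr2) to 1.37 (Ifnar2). Induced genes with a low fold were Ifi35 (1.07), Ifi27 (1.1), Trim25 (1.12), Bst2 (1.17) and Rtp4 (1.21). Among tested members whose promoters held ISRE letters (14 genes), the median log2 excess of WT2 over the other WT libraries was 0.60, and WT2 was highest of the WT libraries in all 14. Among the 12 tested members whose matched promoters held none it was 0.31, and WT2 was highest of the WT libraries in 11. Over 233 other tested genes with ISRE letters it was 0.09, and over all tested genes 0.05. WT2 was highest of the WT libraries in 47.2% of those 233 genes and in 35.6% of all tested genes. These are descriptions of 1 library and carry no test.

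**Figure D5:**
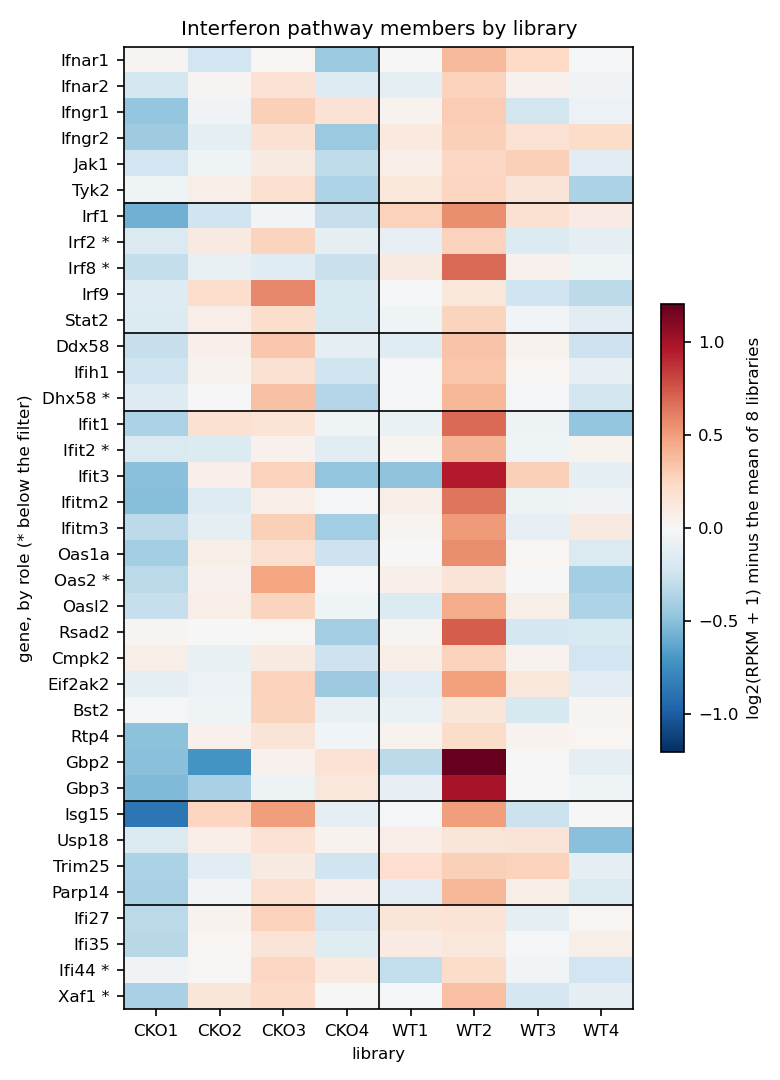
Level of the 37 members with a row in each library, as log2(RPKM + 1) minus the mean over the 8 libraries. Columns are libraries, rows are genes grouped by role (horizontal lines), and an asterisk marks the 7 genes below the filter. The WT2 column is the reddest, CKO3 is red over much of its length, and CKO1 is mostly blue.

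Markers of some other cell types were high in the same libraries, and those of others were not. In a whole tissue, fewer cells of a type and less RNA per cell cannot be told apart. The summed level of 8 monocyte and macrophage markers was 163 to 353 RPKM in CKO and 313 to 595 RPKM in WT, highest in WT2 and lowest in CKO1. Lyz2 made up most of that sum (434 RPKM in WT2). All 8 had a negative log2 change, against 70.4% of all tested genes. Of the 8, Ccr2 and Tyrobp passed as lower (25%, against 5.74% of all tested genes). Neither passed without WT2 (limma adjusted p = 0.0798 and 0.108). T and NK cell markers summed to 1.90 RPKM in WT2 and 0.513 RPKM in WT3, while no other library passed 0.171 RPKM, with 5 of the 6 genes at 0 in at least 1 library. B and plasma cell markers summed to 13.2 RPKM in WT2 and 4.54 RPKM in WT3, and the other libraries did not pass 0.496 RPKM, with 5 of these 6 genes at 0 in at least 1 library. Fat markers, mostly Fabp4, summed to 58.3 RPKM in WT2 and to 22.2 to 30.3 RPKM in the others. The sum of fibroblast markers, mostly collagen genes, was highest in CKO3 (60.9 RPKM) and WT2 (51.1 RPKM). Within that list Col1a1, Col1a2 and Col3a1 had positive log2 changes (0.43, 0.32 and 0.41). Pdgfra and Pdgfrb had negative ones (-0.23 and -0.18) and were highest in WT2 (2.41 and 2.29 RPKM). None of these fibroblast markers passed. The sum of neutrophil markers, mostly S100a8 and S100a9, followed another order, with 78.6 RPKM in WT1 and 65.9 RPKM in WT2, and 41.8 RPKM in CKO4 and 33.2 RPKM in CKO3. Lowest was CKO1 (12.6 RPKM). All 4 tested neutrophil markers had a negative log2 change (median -0.74), and none passed. The neutrophil markers Csf3r and Cxcr2 were highest in WT2 (4.17 and 1.89 RPKM) and lowest in CKO1 (0.758 and 0.506 RPKM). The sum of acinar markers was highest in CKO4, but Cela1, the most abundant of them, was highest in WT1 (46900 RPKM). Cela1 had a negative log2 change (-0.14) and the other acinar markers positive ones, and none passed. The sum of islet markers was lowest in WT3 (779 RPKM). All 3 tested duct markers had a negative change (median -0.55) and all 4 islet markers a positive one (median 0.52). Of these, Sox9 of duct cells was lower (limma adjusted p = 0.0212, up to 0.0571 without 1 library) and the glucagon gene Gcg higher (0.0451, up to 0.119). The most abundant duct and islet markers, Krt19 and Ins2, did not pass (limma adjusted p = 0.0798 and 0.457). Among the endothelial markers Kdr was lower (limma adjusted p = 0.0278, up to 0.0827 without 1 library). The others were near level, with log2 changes of 0.01 (Pecam1), 0.03 (Cdh5) and 0.04 (Tek, below the filter). Single markers in this paragraph other than Lyz2, S100a9, Pecam1, Fabp4, Col3a1, Cela1, Krt19 and Ins2 were named after their values were seen. The part of these cells in the levels of Irf1, Irf8 or the induced genes was not tested.

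Further genes of the pathway, outside the 39, were read from lists. Of 93 symbols in 6 further lists, 83 matched a row and 54 were tested. Among these 1 was lower in CKO and 0 were higher, which is 1.85% called, against 7.17% of all tested genes. An unadjusted p under 0.05 was found for 7 (13.0%, against 27.3%), among them Sting1 and Tbk1, whose values need care as described below. The one that fell was Ifi30, a lysosomal thiol reductase induced by interferon gamma and used in antigen processing. It stood at 15.9, 15.4, 13.7 and 11.7 RPKM in CKO1 to CKO4 and at 25.3, 37.2, 27.6 and 31.2 RPKM in WT1 to WT4, without overlap. The log2 change was -1.04 (SE 0.14, limma adjusted p = 0.00126), and leaving out any 1 library left the adjusted p between 0.0013 and 0.00752. Of 29 tested genes in the list of other induced genes 24 had a negative change (82.8%, against 70.4% of all tested genes), with a median of -0.18. Without WT2 the share was 62.1%, against 68.3%, and the median -0.07.

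Ligand genes could hardly be measured. Of 11 ligand symbols 4 matched a row and 0 were tested, and no type I interferon gene was among the 4, so those genes were not analysed here. Ifng, the gene of interferon gamma, had at most 2 reads in a library and was at 0 in 6 of the 8 libraries, and Ifnl3, of interferon lambda, had at most 1 read. The other rows were the cytokine genes Il10, with 1 to 10 reads a library, and Il22, with at most 1. In the list of other receptors and kinases 0 of 4 passed. Nearest were Ifnlr1, the interferon lambda receptor (3.00 ± 0.694 and 2.15 ± 0.461 RPKM, SD, n = 4 each, limma adjusted p = 0.183), and Il10rb, the chain it shares with the interleukin 10 receptor (10.4 ± 1.61 and 12.2 ± 1.92 RPKM, SD, n = 4 each, limma adjusted p = 0.353). Of 5 tested further STAT genes 0 passed. Stat5b was at 2.99 ± 0.340 and 2.32 ± 0.352 RPKM (SD, n = 4 each, limma adjusted p = 0.177), and it passed with median centring (log2 change 0.37, limma adjusted p = 0.0405). Stat6 was at 21.2 ± 2.77 and 23.9 ± 2.86 RPKM (SD, n = 4 each, limma adjusted p = 0.402).

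Of 9 tested negative regulators 0 passed, with Pias1 (limma adjusted p = 0.322) and Socs2 (0.418) nearest. Socs1, the feedback inhibitor of JAK kinases, was below the filter and is named here after its values were seen. It stood at 0.131, 0.239, 0.219 and 0.236 RPKM in CKO1 to CKO4 and at 0.680, 0.674, 0.861 and 0.563 RPKM in WT1 to WT4, 3.37-fold higher in WT and without overlap. When all genes were tested without the filter its log2 change was -0.49 (SE 0.07, limma adjusted p = 0.011). The largest count behind it was 36 reads in a library.

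In the list of nucleic acid sensing genes 0 of 7 passed. Nearest were Sting1, the adaptor of cytosolic DNA sensing (6.47 ± 0.755 and 4.95 ± 1.06 RPKM, SD, n = 4 each, limma adjusted p = 0.146), and the kinase Tbk1 that it activates (4.97 ± 0.352 and 4.09 ± 0.150 RPKM, SD, n = 4 each, limma adjusted p = 0.181). The values of Sting1 and Tbk1 need care. Of 16068 genes detected in 2 or more libraries, 16056 behaved as read counts do: some whole-number length turned every value into whole reads. That length was searched over a wide range and not compared with the annotated one, so a match does not show unaltered values. For Tbk1 it gave 5655 to 7856 reads a library at 3.91 to 5.47 RPKM, against 857 to 1344 reads for Ptpn1 at 4.24 to 7.08 RPKM. The length found for Tbk1 may therefore not be that of the gene. Among the 12 genes without such a length were 6 genes of interferon induction and sensing: Irf3, Irf7, Mavs, Nlrc5, Sting1 and Zbp1. In each of these 6 the WT values were whole reads at 1 length, and at that length some or all CKO values were not. For Irf3 the CKO values came to 1542.28, 1654.82, 1632.06 and 1660.49 reads, and for Sting1 to 571.94, 523.56, 532.62 and 397.4 reads. All 37 members with a row were whole reads in all 8 libraries by the same search. Irf3, Irf7, Zbp1 and Nlrc5 had been left out of the members because they fail it. That result therefore follows in part from how the members were chosen. The sources used here do not say how the 12 genes came to differ. Sting1 and Mavs, which are among them, were counted with the tested genes of the further lists, so those counts rest partly on such values.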

How the data were processed

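RNA-seq of whole mouse pancreas was used as deposited, in 1 table of 16888 genes. Its header gives no unit. The values were deposited as RPKM, as read from the numbers: for 99.93% of genes above 0 in at least 2 libraries, a whole-number length made every value a whole count of reads (within 0.01 reads, widened in proportion for large counts). These lengths were not compared with annotated ones. The build was mm10, per the submitters' processing notes. The aligner, counter and annotation: not given in the sources used here. A column without a name held 8 numbers and was not used (1 column).

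A gene was tested if 4 or more libraries reached 1 RPKM (8513 genes), with limma 3.58.1 in R 4.3.3 on log2(RPKM + 1), with genotype alone in the model, trended and robust variances, and Benjamini-Hochberg adjustment over all of them. The threshold was 0.05. Genes were named by rule: Anxa1, members past the threshold, the 2 most abundant and the 2 of smallest p in each role, in further lists those past the threshold or else the 2 of smallest p, and the top marker of each cell type. All other members were described too. The top markers of the dendritic, T and NK, and erythroid lists (Itgax, Nkg7 and Hbb-bs) were not described singly. Socs1, some single markers and the genes without whole reads were named from their values. Members and lists were chosen with earlier results of these data known. Same-numbered libraries did not deviate together (correlations of -0.123, -0.315, 0.142 and 0.0331), so no block was used. A count of 3 reads on a 1 kb gene equals 0.0873 to 0.0985 RPKM, for counting error only. The recovery and the fits were tested on simulated data. Python 3.11.15, NumPy 2.4.6, pandas 2.3.3 and Matplotlib 3.10.9 were used, with gene positions from GENCODE M21.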

Additional observations from a re-analysis of the deposited data

Results flagged for a closer look

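A library stood apart from the other 3 of its group, by the gap test of Dixon at the 95% level, in 17 of 154 groups of 4 values examined. Chance alone flags about 1 in 20 groups, and the genes are not independent. In 8 of the 17 the library was WT2. WT2 was high for Gbp2 (23.4 RPKM, the others at 6.37 to 8.22), Gbp3 (4.44, the others at 1.57 to 1.76), Ifitm2 (104, the others at 63.5 to 69.5), Rtp4 (2.39, the others at 1.95 to 1.99) and Irf2 (1.32, the others at 0.717 to 0.794). It was also high for the endothelial marker Pecam1 (10.5), the summed antiviral effectors (345 RPKM, the others at 214 to 228) and the summed dendritic markers (1.64). Ifitm3 (168 RPKM) and Ifitm2 made up most of that antiviral sum in WT2. CKO3 was high for Bst2 (15.7 RPKM), Ifit2 (0.417), the collagen gene Col3a1 (37.5), the plasma cell gene Jchain (0.209) and the summed fibroblast markers (60.9). CKO1 was low for Ifnlr1 (1.97 RPKM) and Stat5b (2.48), CKO4 for Rsad2 (1.68), and WT4 for Usp18 (0.482).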

How the results depend on the processing

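The count of members higher in CKO stayed at 0 in all 15 other settings. The count of members lower was 1 with a pseudocount of 0.1, variances without a trend, limma-voom, median centring, totals without acinar enzymes and the replicate block, and 0 with no filter on low values. Leaving out 1 library gave 0 to 2. The count over all genes (610) was 223 to 705 over these omissions and 423 to 640 otherwise. It was 572 with median centring, 305 higher and 267 lower, in place of 121 and 489, and that scaling moved the median of all genes from -0.12 to -0.02. Totals without the acinar enzymes gave 235 higher and 405 lower. The median of the members ran from -0.22 to -0.03. With the replicate block, 548 genes and 1 member passed, and the pairing by number was not borne out by the libraries. The filter kept the same genes in each omission. Signs turned in 39 of 734 gene and setting pairs, with a size of at most 0.18. With median centring these were Ifnar2 0.02, Ifngr1 0.08, Tyk2 0.02, Stat2 0.07, Ifit1 0.06, Cmpk2 0.02 and Parp14 0.02. With totals without enzymes they were Ifngr1 0.04, Stat2 0.02 and Ifit1 0.01. Over the omissions of 1 library, the genes whose sign turned ran as follows: Ifngr1 -0.12 to 0.12, Tyk2 -0.22 to 0.03, Stat2 -0.11 to 0.05, Ddx58 -0.10 to 0.12, Ifit1 -0.20 to 0.18, Oasl2 -0.11 to 0.16, Rsad2 -0.28 to 0.03, Bst2 -0.03 to 0.10, Isg15 -0.30 to 0.16, Usp18 -0.10 to 0.13, Parp14 -0.16 to 0.04 and Pecam1 -0.05 to 0.13. The cause of these shifts was not tested. Genes near 1 RPKM, such as Usp18 with 26 to 82 reads, carry counting error that limits their precision.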

Other observations

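A chemokine gene and a GTPase gene of the interferon gamma response, named here after their values were seen, were highest in WT2. Cxcl9, a chemokine that draws T cells, was at 2.23 RPKM in WT2 and at 0.0565 to 0.184 RPKM in the other WT libraries. In CKO it was at 0.01 to 0.0436 RPKM, below every WT library, but the gene was below the filter and had as few as 1 read in a library. Iigp1, an immunity-related GTPase, was at 6.4 RPKM in WT2 and at 0.70 to 1.66 RPKM in the other WT libraries and 0.54 to 1.32 RPKM in CKO. Isg20, an RNA exonuclease, was higher in every CKO library (7.70 to 10.1 RPKM) than in any WT library (5.25 to 7.50 RPKM), a log2 change of 0.44 (SE 0.13) that did not pass (limma adjusted p = 0.0589, and 0.0403 to 0.154 without 1 library).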
